A study of Sus scrofa with 13 samples.

Results

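Bulk liver RNA was examined for 8 epithelial genes, KRT7, KRT19, EPCAM, SOX9, CFTR, SPP1, KRT8 and KRT18, chosen by name as markers of the bile duct lining or as the keratins of hepatocytes. All 8 had exactly 1 row among the 35670 genes of the count table, and all 8 were among the 16481 genes with enough reads to be tested. None of the 8 differed between groups past the threshold in any of 6 comparisons. The widest contrasts were between individual livers, and leaving out 1 liver turned the direction of 25 of the 48 group differences.

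Pig liver biopsies were sequenced as 13 libraries. The labels do not tie a library to an animal. The paper describes each point in its plot of the control and infused samples as 1 pig. Since biopsies were also taken before the blood supply was clamped, a baseline biopsy may come from a pig of another group. "Liver" below stands for 1 library. Baseline livers (n = 2, labelled 1a and 2) had neither ischemia nor infused cells. Ischemic controls (n = 3) had 45 min of ischemia and 6 h of reperfusion without cells. Livers with arterial infusion (n = 4) and portal infusion (n = 4) had the same ischemia and reperfusion and also received human bone marrow mesenchymal stromal cells (BM-MSCs), at 3000000 cells per kg, given by way of the hepatic artery or of the portal vein. All 11 livers at 6 h thus share ischemia and reperfusion, and no group received cells without ischemia. No group had the hours of anesthesia and open surgery without ischemia either. Against baseline, these cannot be told apart from ischemia and reperfusion. The infused cells are human and reads were mapped to the pig genome only, so a human transcript could be counted only where it resembles a pig gene.

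Cholangiocytes line the bile ducts and make up a small part of the liver, whereas hepatocytes fill most of it. Keratins are intermediate filament proteins that assemble as pairs of a type II and a type I chain: adult hepatocytes rely on KRT8 with KRT18, and cholangiocytes add KRT7 with KRT19. Injured liver can show a ductular reaction, in which duct-like cells that express SOX9, EPCAM and SPP1 expand. In bulk RNA, fewer cells of a type and less RNA per cell cannot be told apart.

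Total counts were between 18975413 and 35949178 per library. The share of tested genes with 0 reads was 7.40% to 20.8% in 5 libraries, which were portal infusions 1 and 4, arterial infusions 1 and 2 and ischemic control 2, and 1.78% to 3.99% in the other 8. Levels are given below as normalized counts, which are counts divided by a library size factor, in the order of the replicate numbers. They are not corrected for transcript length, so levels are compared between libraries and not between genes.

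KRT7, KRT8 and KRT18 lie together on chromosome 5 of the Sscrofa11.1 assembly, in RefSeq coordinates at 17553192 to 17570582, 18172423 to 18180277 and 18217686 to 18221432, respectively. Only 37408 bases separate KRT8 from KRT18. KRT19 (21115453 to 21119115) and SOX9 (8642154 to 8647315) are on chromosome 12. EPCAM is on chromosome 3 (93169800 to 93185221), SPP1 on chromosome 8 (131077786 to 131085334) and CFTR on chromosome 18 (28627717 to 28818209). No other RefSeq gene overlapped any of the 8. RefSeq classes its pig KRT7 entry as a long noncoding RNA and the other 7 as protein coding.

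KRT8, the type II keratin of hepatocytes, had 80806 and 70529.9 normalized counts at baseline and 123424, 236640 and 59621 in the ischemic controls. After arterial infusion it was 85286, 72525, 103687 and 74751, and after portal infusion 202360, 102712, 109772 and 54147. Ischemic control 2 and portal infusion 1 stood highest, the lowest values were those of portal infusion 4 and ischemic control 3, and every group overlapped every other. The mean was 75668 ± 7266 at baseline (SD, n = 2) and 139895 ± 89651 in the controls (SD, n = 3), which differed by 0.86 on the log2 scale (SE 0.62, edgeR adjusted p = 0.978), by 0.31 without ischemic control 2 and by 1.26 without ischemic control 3.

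KRT18, the type I partner of KRT8, stood at 36388 and 30145 in the baseline livers and at 66266, 213736 and 30456 in the ischemic controls. Arterial infusion gave 80571, 58742, 61540.5 and 46845, and portal infusion 185864, 60646, 63577 and 42433. In 10 of the 11 livers at 6 h KRT18 was above both baseline livers, the exception being ischemic control 3, whose value lay between them. The log2 fold change of all livers at 6 h against baseline was 1.27 (SE 0.68, edgeR adjusted p = 0.860), with an exact permutation p of 0.0897 where the smallest possible is 0.0128. Between controls and baseline it was 1.60 (SE 0.77, edgeR adjusted p = 0.978), and 0.57 without ischemic control 2.

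**Figure D1:**
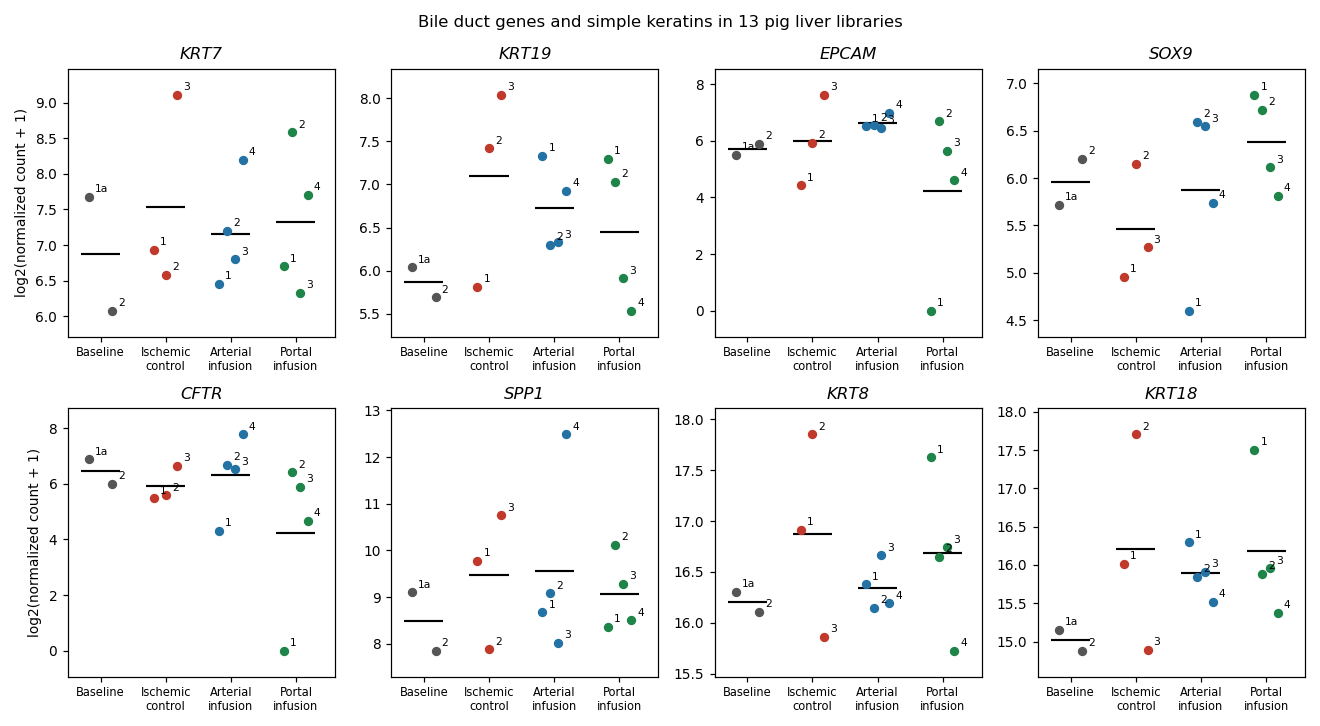
Each panel plots 1 gene as log2(normalized count + 1) on the vertical axis for the 13 libraries in 4 groups, with points numbered by replicate and horizontal lines at the group means. Each panel has its own scale; the groups overlap in all 8 panels, and EPCAM and CFTR are at 0 in portal infusion 1.

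KRT7, the type II keratin of bile duct cells, had 204 and 66.5 normalized counts at baseline, while 121, 94.6 and 554 were found in ischemic controls. With cells given by the artery the values were 86.5, 146, 110.3 and 293, and by the portal vein 103, 383, 79.3 and 207. The highest value belonged to ischemic control 3 and the lowest to baseline 2, so the 2 baseline livers alone differed 3.08-fold. The log2 fold change of controls against baseline was 0.91 (SE 0.91, edgeR adjusted p = 0.978), and it was -0.32 without ischemic control 3.

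KRT19, the type I keratin paired with KRT7 in ducts, had 64.8 and 50.6 at baseline, and the ischemic controls had 55.4, 169.9 and 262. Arterial livers had 159.7, 78.0, 79.5 and 121, and the portal livers 156, 129.8, 59.2 and 45.4. In 8 of the 11 livers at 6 h the value was above both baseline livers, while portal infusion 4 was below both. The means were 57.7 ± 10.0 at baseline (SD, n = 2) and 163 ± 104 in the controls (SD, n = 3), a difference of 1.47 on the log2 scale (SE 0.78, edgeR adjusted p = 0.978). Leaving out any 1 library kept this change between 0.97 and 1.87.

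EPCAM, an adhesion molecule of the surface of duct cells and hepatic progenitors, had 44.7 and 58.0 at baseline, whereas the controls spread over 20.6, 59.5 and 197. Values after arterial infusion were 90.1, 92.8, 86.8 and 126, and after portal infusion 0, 102, 49.2 and 23.3. Arterial livers lay close together, inside the range of the controls and overlapping portal infusion 2. The log2 fold change of arterial against portal infusion was 1.14 (SE 0.99, edgeR adjusted p = 1.00), with an exact permutation p of 0.114, and it ranged from 0.73 without portal infusion 1 to 2.01 without portal infusion 2. Controls against baseline gave 0.85 (SE 1.29, edgeR adjusted p = 0.978), and -0.35 without ischemic control 3.

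CFTR, the chloride channel of the duct cell's apical membrane, had 117 and 63.3 at baseline, and 43.5, 47.3 and 99.0 were counted in the controls. Among arterial livers it was 18.7, 101, 90.9 and 218, and among portal livers 0, 84.1, 58.2 and 24.5. Only arterial infusion 4 was above both baseline livers, and the lowest values were in portal infusion 1, arterial infusion 1 and portal infusion 4. The log2 fold change of arterial against portal infusion was 1.33 (SE 1.00, edgeR adjusted p = 1.00), with an exact permutation p of 0.257. It was 0.73 without arterial infusion 4 and 1.93 without portal infusion 2.

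The 0 of EPCAM and CFTR in portal infusion 1 met a library with many empty genes. From the mean of the other 12 libraries, 62.9 reads of EPCAM and 64.0 of CFTR would fall in it. Of the 975 genes with a mean within 25% of that of EPCAM, 244 (25.0%) also had 0 reads there, and of the 968 genes like CFTR in level, 238 (24.6%) did. A count of 0 allows up to 3 reads. In portal infusion 4 the corresponding shares were 10.8% and 10.2%, and in the 8 libraries with few empty genes they were at most 0.706%.

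SOX9, the transcription factor of duct cells and their precursors, had 51.7 and 72.8 at baseline, with 30.1, 70.0 and 37.6 in ischemic controls. It was 23.2, 95.6, 92.5 and 52.4 after arterial infusion, and the portal livers had 117, 105, 68.2 and 55.2. The 2 highest portal and 2 highest arterial livers were above every baseline and control liver, and arterial infusion 1 was the lowest of the 13. Infused livers against controls gave a log2 fold change of 0.72 (SE 0.60, edgeR adjusted p = 1.00), with an exact permutation p of 0.212. For SOX9 and CFTR the controls were on average below baseline, by log2 fold changes of -0.46 (SE 0.77) and -0.52 (SE 1.26), unlike the other 6 genes.

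SPP1 encodes osteopontin, a secreted ligand of CD44 and several integrins that duct cells and activated macrophages make. Baseline livers had 551 and 230.0, and ischemic controls had 880.5, 235 and 1723. Arterial livers showed 409, 540.4, 259.6 and 5733, and the portal livers 328, 1113, 625 and 362. Arterial infusion 4 stood far above the others, and the 13 libraries spanned 24.9-fold, the widest range among the 6 genes with reads in every library.

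That liver set the arterial mean of SPP1, which was 1735 ± 2667 (SD, n = 4) with it and 403 without it. The log2 fold change of arterial against portal infusion was 1.498 (SE 0.89, edgeR adjusted p = 1.00), and -0.61 without arterial infusion 4. The same liver had the highest CFTR of all livers and the highest EPCAM of the infused livers, and its summed stellate cell and fibroblast markers were 29140.2, against 5115 to 10444 in the other arterial livers. Ischemic control 3, the next highest in SPP1, had a sum of 37821, and ischemic control 1, with an SPP1 of 880.5, a sum of 28327. The marker sum did not order SPP1 in every liver, since portal infusion 2 had the third highest SPP1, 1113, with a sum of 10788, and baseline 2 the lowest SPP1, 230.0, with a sum of 20312. In arterial infusion 4 the summed endothelial markers, 18921, were also the highest of all livers. Its summed macrophage markers, 39740.5, were the highest of the infused livers. Its summed cholangiocyte markers, 13696, were the highest of all livers only with SPP1 counted in, which made up 5733 of that sum. Arterial infusion 2 had a sum of 13270 with an SPP1 of 540.4. The part of any of these cell types in the SPP1 level was not tested.

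The comparison of ischemic controls with baseline holds ischemia and reperfusion together with the hours of anesthesia and surgery. Across it, 6 of the 8 genes had a positive and 2 a negative log2 fold change. Their median was 0.89, against 0.00 for all genes tested, and the exact permutation p-values were 0.3 to 0.7 where 3 against 2 livers cannot go below 0.1. None of the 8 passed the adjusted threshold with edgeR, as 0% of all genes did, or with DESeq2, and none had an unadjusted p under 0.05, which 4.37% of all genes had. None had groups that did not overlap, whereas 14.8% of all genes were higher and 16.3% lower in every control than in every baseline liver.

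With all 11 livers at 6 h against baseline, 7 of the 8 genes had a positive edgeR log2 fold change. The median was 0.53, against -0.01 for all genes. By means of log2(normalized count + 1), the scale of the permutation tests, EPCAM and SOX9 were instead slightly lower than at baseline. Again 0 of 8 passed the adjusted threshold, as for 0% of all genes, and 0 of 8 had an unadjusted p under 0.05, which held for 4.78% of all genes. Groups did not overlap for 3.3% of all genes in the higher and 3.97% in the lower direction, and for 0 of the 8.

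Infused livers were compared with the ischemic controls to ask whether BM-MSCs altered the injured liver. KRT7, KRT19, KRT8, KRT18 and EPCAM were on average lower in the 8 infused livers, with edgeR log2 fold changes of -0.49 to -0.67. SOX9, CFTR and SPP1 were higher, with 0.08 to 0.72. By means of log2(normalized count + 1), the scale of the permutation tests, CFTR and SPP1 were instead lower in infused livers. None of the 8 passed (edgeR adjusted p = 1.00 for each, 0% of all genes called), and 0 of 8 had an unadjusted p under 0.05, which 2.14% of all genes had. Of all genes, 0.225% were higher and 0.34% lower in every infused than in every control liver, and 0 of the 8 were.

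For 6 of the 8 genes the direction of the edgeR difference between infused livers and controls turned on leaving out 1 liver. Without ischemic control 3, KRT7 was at 0.66 and EPCAM at 0.71, and without ischemic control 2, KRT8 was at 0.06 and KRT18 at 0.54 on the log2 scale. SPP1 was at -0.97 without arterial infusion 4, and CFTR fell below 0 on leaving out any 1 of 5 livers, to -0.22 without portal infusion 2. KRT19 stayed negative on leaving out any 1 library, between -1.07 and -0.17, and SOX9 stayed positive, between 0.51 and 1.10.

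By route, arterial infusion against controls gave 4 positive and 4 negative differences, with 0 of 8 called (0% of all genes), and none at an unadjusted p under 0.05 (1.57% of all genes). Portal infusion gave 1 positive, SOX9 at 0.90 (SE 0.66), and 7 negative differences, with 0 of 8 called (0%) and none at an unadjusted p under 0.05 (2.79%). These comparisons share the 3 control livers. Arterial against portal infusion gave 4 positive and 4 negative differences, again with 0 of 8 called (0%) and none at an unadjusted p under 0.05 (2.4%). The lowest exact permutation p among the 8 was 0.4 for arterial, 0.143 for portal infusion against controls and 0.114 between the routes.

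**Figure D2:**
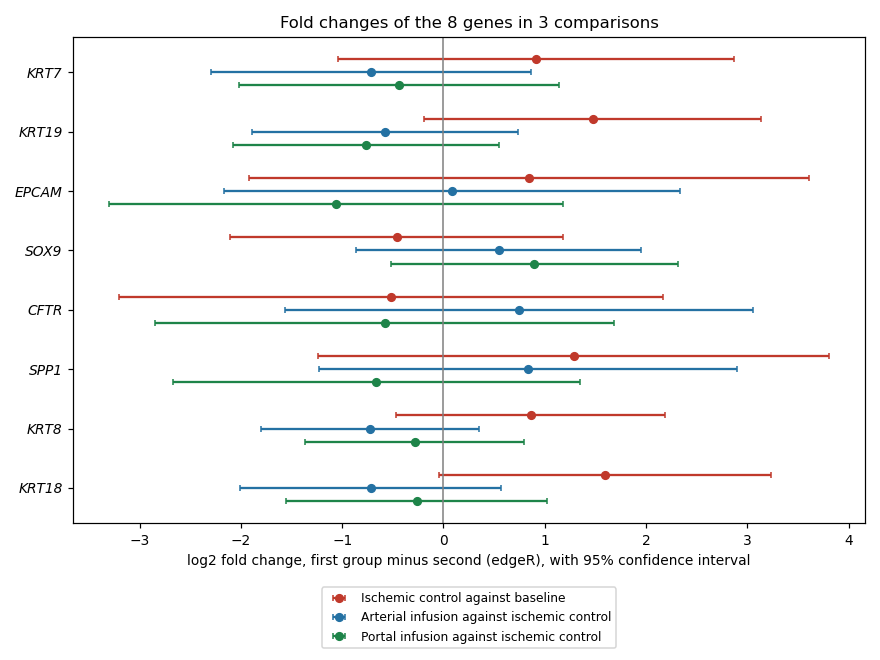
The horizontal axis is the log2 fold change of each gene from edgeR, with bars for the 95% confidence interval, for ischemic controls against baseline and for arterial and portal infusion against ischemic controls. All 24 intervals include 0, the nearest to excluding it being KRT18 in controls against baseline, from -0.04 to 3.23.

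The width of these intervals sets what could be seen. For KRT8, the most tightly measured of the 8 genes, the interval for infused livers against controls ran from -1.44 to 0.43 on the log2 scale. For EPCAM it ran from -2.43 to 1.46 and for CFTR from -1.95 to 2.11, so changes of several-fold in either direction were not detectable with these livers.

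The ratio of KRT8 to KRT18 counts needs no scaling between libraries, since both are read in the same one. It was 2.22 and 2.34 in baseline livers, and 1.86, 1.11 and 1.96 in ischemic controls. Arterial livers gave 1.06, 1.23, 1.68 and 1.60, and the portal livers 1.09, 1.69, 1.73 and 1.28. All 11 livers at 6 h were below both baseline livers, by 0.66 on average on the log2 scale. How often the ratio of other gene pairs separates these livers in this way was not computed.

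For that comparison the exact two-sided permutation p was 0.0128, the smallest that 11 against 2 livers allow, and 0.154 after Benjamini-Hochberg adjustment over the 12 ratio comparisons made. It was added after the planned comparisons had been seen. Both baseline livers are needed for it, since 11 against 1 liver cannot go below 0.0833. Controls against baseline, planned, gave a log2 difference of -0.52 with an exact permutation p of 0.3, and -0.26 without ischemic control 2. Infused livers against controls gave -0.19 with an exact permutation p of 0.394, and between -0.45 and -0.043 on leaving out 1 library.

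The share of empty genes moved with this ratio. The 5 libraries with 7.40% to 20.8% of tested genes at 0 had the 5 lowest ratios, 1.06 to 1.28, while the other 6 livers at 6 h, with 1.93% to 3.99% at 0, had 1.60 to 1.96. Without those 5 libraries, a choice made after the ratios had been seen, the log2 difference from baseline was -0.38, against -0.66 with them. Since all 11 livers were below both baseline livers, any subset of them is too, and no p is given for it. The part of empty genes in the ratio was not tested. The baseline livers had 1.78% and 2.80% of tested genes at 0.

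**Figure D3:**
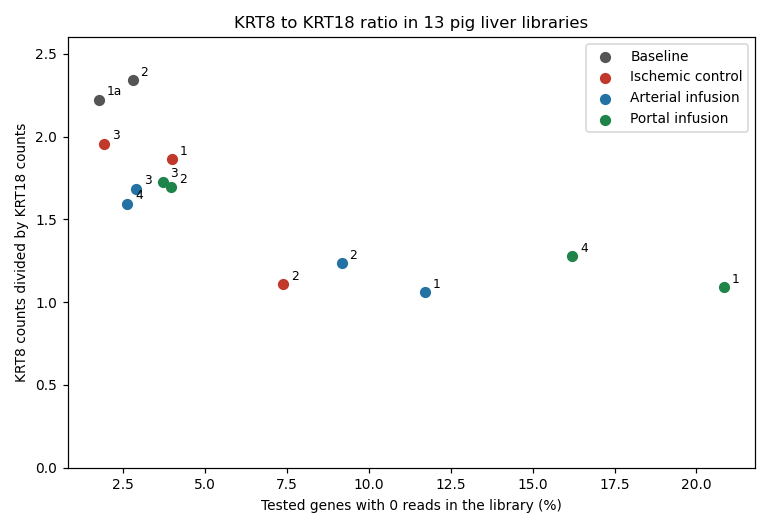
The horizontal axis is the percentage of tested genes with 0 reads in a library and the vertical axis the KRT8 count divided by the KRT18 count, for 13 libraries numbered by replicate and coloured by group. Both baseline livers have ratios above 2.2 and all 11 livers at 6 h are below 2, with the 5 libraries richest in empty genes at 1.06 to 1.28.

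The ratio of the ductal pair, KRT7 to KRT19, showed no such order. Baseline livers had 3.15 and 1.31, and ischemic controls 2.19, 0.56 and 2.11. In arterial livers it was 0.54, 1.87, 1.39 and 2.43, and in portal livers 0.66, 2.95, 1.34 and 4.57. The groups overlapped, with a log2 difference of -0.56 between controls and baseline (exact permutation p = 0.7) and of 0.21 between infused livers and controls (exact permutation p = 0.782).

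How the 8 genes varied together was measured over all 13 libraries as the correlation of log2(normalized count + 1) for each of the 28 pairs, with permutation p-values adjusted over the pairs. KRT8 and KRT18 were the most strongly correlated, with Pearson's r = 0.91 (permutation, adjusted p = 0.00364) and Spearman's rho = 0.87 (permutation, adjusted p = 0.00812). Without ischemic control 2 and portal infusion 1, which lay farthest from the median, r was 0.68.

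The 6 ductal genes did not vary as 1 block. KRT7 and KRT19 gave r = 0.39, and -0.09 without the 2 farthest libraries, and SOX9 gave r of -0.08 to -0.30 with the other 5, none past the threshold (permutation, adjusted p 0.464 to 0.802), with r at 0.36 for EPCAM without the 2 farthest libraries. EPCAM and CFTR gave r = 0.89 (permutation, adjusted p = 0.0456) and rho = 0.60 (permutation, adjusted p = 0.228), and r was 0.49 without portal infusion 1, where both were at 0, and ischemic control 3. KRT7 and SPP1 gave r = 0.71 (permutation, adjusted p = 0.0563) and rho = 0.69 (permutation, adjusted p = 0.155).

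**Figure D4:**
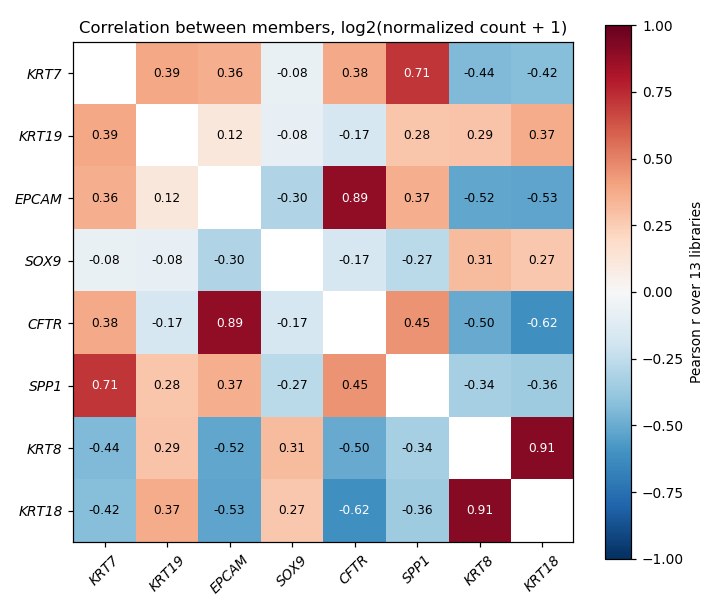
Each cell gives Pearson's r of log2(normalized count + 1) between 2 of the 8 genes over 13 libraries, from blue for negative to red for positive. KRT8 with KRT18 (0.91) and EPCAM with CFTR (0.89) are the strongest. EPCAM, CFTR, KRT7 and SPP1 each have a negative r with both KRT8 and KRT18, none past the threshold (permutation, adjusted p 0.234 to 0.423). Without the 2 farthest libraries, KRT8 with CFTR went from -0.50 to -0.01 and KRT8 with KRT7 from -0.44 to -0.41.

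Of all tested genes, those most like KRT8 over the 13 libraries in log2 CPM (library-scaled counts) were BCAR1 (r = 0.92) and MVP (r = 0.90), followed by KRT18. KRT18 was most like PSMC3 (r = 0.94), a proteasome subunit. The closest gene to KRT7 was CNNM4 (r = 0.85), to KRT19 SCARA3 (r = 0.88), to SOX9 TIRAP (r = 0.89) and to SPP1 CLIP1 (r = 0.91). EPCAM was closest to SMOX (r = 0.95), and CFTR to an unnamed gene (r = 0.95), PREX1 and DCP1B. No ductal gene among the 8 had another of the 8 within its closest 3. Each r here was picked as among the highest of all tested genes over 13 libraries, so it is high partly by selection. No chance level was computed for it.

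Beyond the 8 genes, a list of ductal identity genes was read. Bulk RNA does not tell which cell type their reads came from. Of 20 ductal identity genes 17 were tested, 7 higher and 10 lower in controls than at baseline (median log2 fold change -0.31), and 11 higher and 6 lower in infused livers than in controls (median 0.32). None was called in either comparison. CDH1, the epithelial cadherin, counted 10584 and 13035 in baseline livers against 5024, 5698 and 6290.2 in ischemic controls, so these groups did not overlap, as for 16.3% of all genes in this direction, with a log2 fold change of -1.06 (SE 0.63, edgeR adjusted p = 0.978). ELF3, an epithelial transcription factor, gave 1.28 in the same comparison (SE 0.71, edgeR adjusted p = 0.978).

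Ducts modify bile through bicarbonate and water transport, of which CFTR is a part. Of 14 transport genes, CFTR among them, 11 were tested, 7 higher and 4 lower in controls than at baseline, and 5 higher and 6 lower in infused livers than in controls, with none called. SCTR, the secretin receptor that acts upstream of CFTR, stood at 28.5 and 52.7 in baseline livers and at 0.8, 0 and 16.6 in ischemic controls, with no overlap, again as for 16.3% of all genes. Its log2 fold change was -2.72 (SE 1.60, edgeR adjusted p = 0.978). In infused livers SCTR ranged from 0 to 45.4.

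Notch and YAP signalling act upstream of SOX9 in duct cells. Of the 23 genes of these pathways, all tested, 8 were higher and 15 lower in controls than at baseline, and 9 higher and 14 lower in infused livers than in controls, with none called. CCN1, a YAP target, had 671 and 544 at baseline, and ischemic controls had 3251, 869 and 799, a log2 fold change of 1.46 (SE 0.75, edgeR adjusted p = 0.978) in which ischemic control 1 stood apart. The mean difference of log2(normalized count + 1) was 1.12 with that liver and 0.46 without it. CCN2, another, had 2688, 392.2 and 470.5 in the controls and 293 to 949 in infused livers, a log2 fold change of -1.18 (SE 0.51, edgeR adjusted p = 1.00). Without ischemic control 1 the direction turned, the mean difference of log2(normalized count + 1) going from -0.61 to 0.27.

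Other keratins were scarce. Of 17 listed, 14 had a row and 3 were tested, KRT10, KRT23 and KRT80. KRT10 had 109.5 and 48.5 at baseline, and ischemic controls 106, 250.4 and 187, with a log2 fold change of 1.16 (SE 0.73, edgeR adjusted p = 0.978). KRT23 was at 0 in 6 of the 13 libraries.

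Plakins and desmosomal proteins tie keratin filaments to the membrane. Of a list of 13 genes, 11 of this kind together with the filament genes VIM and LMNA, all tested, 7 were higher and 6 lower in controls than at baseline, and 5 higher and 8 lower in infused livers than in controls, with none called. EVPL, envoplakin, gave -2.86 in infused livers against controls (SE 1.26, edgeR adjusted p = 1.00), from levels of 6.3 to 59.5 in controls and 0 to 9.0 in infused livers. The mean difference of log2(normalized count + 1) was -2.65, and -1.83 without ischemic control 2.

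Among 9 receptors of osteopontin, 5 were higher and 4 lower in controls than at baseline, and 2 higher and 7 lower in infused livers than in controls, with none called. ITGB5, an integrin beta chain, had 639.5 and 731 at baseline, and ischemic controls had 1977, 1623 and 1047. All controls were above both baseline livers, as for 14.8% of all genes. In infused livers it had 331 to 1002, below all 3 controls, as were 0.34% of all genes. ITGB5 was the gene with the smallest p in its list. The log2 fold changes were 1.18 for controls against baseline (SE 0.46, edgeR adjusted p = 0.978) and -1.20 for infused livers against controls (SE 0.31, edgeR adjusted p = 1.00).

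The samples were also checked against marker genes. Hepatocyte markers dominated every library, with summed normalized counts of 887953 to 2829700 over 10 genes. The 8 cholangiocyte markers, 6 of them among the genes described here, summed to 4607 to 13696, most of it CLDN4, whose group means were 6814 to 8839. Mesothelial markers summed to 0 to 39.0 over 3 genes, and markers of gut or gallbladder epithelium to 75.2 to 496 over 6. The summed macrophage markers were 37165 to 64020 in the controls and 24354 to 39740.5 in infused livers, and neutrophil markers ranged from 695 to 12322.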

How the data were processed

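The 8 genes and the gene lists were chosen with earlier results of these data known, so nothing here is independent support for them. Pig liver mRNA was captured by poly-T, made into non-directional libraries and sequenced as 150-nt paired ends. Per the labels and methods, the authors used HISAT2 for mapping to Sscrofa11.1 and FeatureCounts with Ensembl release 110 for gene counts, and deposited the counts unnormalized. Tool versions and the handling of multimapping reads are not given in the sources used here, and without strand a gene cannot be told from an antisense partner.

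The counts were tested with edgeR 4.0.16 in R 4.3.3 (filterByExpr, TMM, quasi-likelihood test, 4 groups in 1 fit, Benjamini-Hochberg over 16481 genes, threshold 0.05). DESeq2 1.42.0 gave size factors and an alternative test, and limma 3.58.1 voom another. Exact two-sided permutation tests used log2(normalized count + 1), and correlations 100000 permutations. Library totals ranged from 18975413 to 35949178. Counts are reads, so floors cover counting error only. The smallest chi-square per gene between any pair of libraries was 77.1, so none was a copy. Whether each library is a separate animal is not given in the labels. The paper describes each point in its plot of the control and infused samples as 1 pig. From which pigs the baseline biopsies came is not given, so p-values measure the spread between these samples.

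Named genes beside the 8 are the 2 with the smallest unadjusted p in each list for controls against baseline and for infused livers against controls, and the 3 genes most like each of the 8. All 13 columns had a sample, with 0 left over. RefSeq symbols and coordinates were matched by gene. A promoter motif search was planned and not run, since no sequence table was used here. The tests were tried on simulated counts first.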

Additional observations from a re-analysis of the deposited data

Results flagged for a closer look

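Each group of 4 livers was screened for a liver far from the rest, by the gap to its nearest neighbour as a share of the group's range, with 0.829 as the limit for 4 samples (Dixon's 95% value). The screen covered 32 combinations of gene, group and scale and 4 of a ratio and a group. Chance flags about 1 in 20 groups if values are normally distributed. For normalized counts the rate may be higher and was not computed. On the log2 scale none passed. Normalized counts were added as a second scale after that, with the SPP1 value of arterial infusion 4 already seen, and 3 passed on it.

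SPP1 in arterial infusion 4 was 5733 normalized counts, with a gap of 0.949 of the range. KRT18 in portal infusion 1 was 185864, with a gap of 0.853. EPCAM in arterial infusion 4 was 126, with a gap of 0.845, in a group whose other 3 livers lay between 86.8 and 92.8.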

How the results depend on the processing

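None of the 8 genes passed the threshold under 11 other settings, in which 476 of 500 values kept their direction, or on leaving out 1 library (408 values), and none of 96 permutation alternatives changed side. Counts of all genes called, 0 in the report, are given in the order controls against baseline, all livers at 6 h against baseline, infused, arterial and portal livers against controls, and arterial against portal infusion. Without a filter on low counts they were 30, 28, 19, 11, 14 and 5, and with DESeq2 over all libraries 5, 14, 1, 0, 4 and 1. DESeq2 on only the groups compared called 166 genes for controls against baseline and 3 for portal infusion against controls, and limma voom with quality weights called 111 for all livers at 6 h. Without the 5 libraries with most empty genes, a choice made after seeing the data, 1 gene was called in each of the first 4 comparisons and 2 in portal infusion against controls. The cause was not tested. EPCAM, CFTR, SOX9, KRT7 and KRT19 rest on 0 to 766 reads a library, and a count of 0 allows up to 3.

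These 24 log2 fold changes turned sign, all short of the threshold. Without the filter, SOX9 at 6 h against baseline was -0.0023. With voom weights, infused livers against controls gave KRT8 0.044, KRT18 0.22 and SPP1 -0.54, arterial livers against controls KRT18 0.15 and SPP1 -0.71, portal livers against controls KRT8 0.20 and KRT18 0.28, and arterial against portal infusion KRT19 -0.050 and SPP1 -0.35. Without portal infusions 1 and 4, CFTR in portal livers against controls was 0.20. Without the 5 libraries, SOX9 was -0.054 and CFTR 0.024 at 6 h against baseline, KRT8 0.068 and KRT18 0.24 in infused livers, KRT18 0.14 and EPCAM -0.049 in arterial livers, and KRT8 0.20 and KRT18 0.34 in portal livers against controls.

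The replicate number as a block called 0 genes in the 6 comparisons. With this replicate block EPCAM was -0.080 for controls and -0.18 for all livers at 6 h against baseline, and against controls CFTR was -0.55 and SPP1 -0.71 in infused livers and SPP1 -0.65 in arterial livers. The labels do not say that a number marks an animal or day. Of 16 pairs of libraries with the same number, 5 had deviations correlated above 0.1 (range -0.42 to 0.43), and 5 of 13 libraries correlated best with their own number. The highest were arterial with portal infusion for numbers 1, 2 and 3, at 0.42, 0.29 and 0.43, while number 4 gave -0.096. Whether these libraries share a factor was not tested, and the block was not used in the main tests.

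Leaving out each library in turn changed the sign of 25 of the 48 log2 fold changes at least once. The lowest and highest values for controls against baseline were -0.98 and 0.014 for CFTR, -0.35 and 1.31 for EPCAM and -0.32 and 1.97 for KRT7. For all livers at 6 h against baseline they were -0.88 and 0.065 for CFTR, -0.093 and 1.58 for KRT7 and -0.21 and 0.23 for SOX9. For infused livers against controls they were -0.22 and 0.54 for CFTR, -0.96 and 0.71 for EPCAM, -0.99 and 0.54 for KRT18, -0.99 and 0.66 for KRT7, -0.91 and 0.057 for KRT8 and -0.97 and 0.83 for SPP1. For arterial livers against controls they were -0.38 and 1.29 for EPCAM, -1.19 and 0.32 for KRT18, -1.19 and 0.52 for KRT7 and -1.27 and 1.58 for SPP1. For portal livers against controls they were -1.92 and 0.13 for EPCAM, -0.85 and 0.77 for KRT18, -1.06 and 0.79 for KRT7, -0.71 and 0.27 for KRT8 and -1.16 and 0.076 for SPP1. Between the routes they were -0.69 and 0.13 for KRT18, -0.050 and 0.45 for KRT19, -0.75 and 0.34 for KRT7 and -0.61 and 2.00 for SPP1. Where a group was left with 1 library, the fit assumed that it varies like the others.

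The log2 ratio of KRT8 to KRT18 at 6 h against baseline was between -0.70 and -0.61 on leaving out 1 library, while it ran from -0.67 to -0.26 for controls against baseline and from -0.45 to -0.043 for infused livers against controls. Without either baseline liver its exact permutation p was 0.0833, the smallest that 11 against 1 liver allows, and without portal infusions 1 and 4 it was -0.59 with an exact permutation p of 0.0545. The log2 ratio of KRT7 to KRT19 ranged from -1.19 to 0.081 for controls against baseline and from -0.43 to 0.54 for infused livers against controls on leaving out 1 library, and was 0.081 and -0.17 without the 5 libraries. The planned promoter motif search was not run.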
